A study of Homo sapiens with 2 samples.

Results

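Dense clusters of Cdx1 and Cdx2 peaks were examined in a human colon cancer cell line. A cluster, called a run, was at least 4 neighboring peaks of 1 library whose summits lay at most 3000 bp apart, on the autosomes without a block of the long arm of chromosome 8. Of 189894 FLAG-wt-Cdx1 peaks on these sequences, 2689 were in 642 runs, and of 213370 FLAG-wt-Cdx2 peaks, 2121 were in 504 runs. The complete lists held 196910 and 218718 peaks. Runs were chosen by the positions of peaks alone, so that their number, gaps and spans describe the choice and are no result of a test.

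CDX1 and CDX2 are homeodomain transcription factors of the intestinal epithelium, where they bind AT-rich DNA and direct the expression of genes of differentiated intestinal cells. Transcription factors often bind at several sites within a few kilobases at enhancers, and long arrays of such sites are used to define large enhancer domains. Groups of peaks also arise where many reads map to repeated sequence, in particular beside centromeres. Whether the runs lie in enhancers was not examined, since histone marks, an input library and a gene annotation of the build were not used here. They are therefore called dense peak clusters or runs, and no sequence or gene name is given for them.

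The data came from 2 chromatin immunoprecipitation libraries, 1 per factor, and no test between the factors was made. In DLD1-TetOff cells, a doxycycline (DOX)-repressed transactivator drives the transfected cDNA, here mouse wt-Cdx1 or wt-Cdx2 with a FLAG tag. The cells were transfected clones selected with hygromycin. DOX (0.5 µg/mL) was removed 20 h before fixation, and 10 dishes were pooled for each library, although the descriptions of both libraries speak of cells kept in DOX without the tagged protein. Chromatin was fixed with 1% formaldehyde for 5 min, cut by MNase (50 min) and collected on anti-FLAG M2 beads. After removal of duplicates, the FLAG-wt-Cdx1 library held 16452141 tags with a fragment length of 131 bp, and the FLAG-wt-Cdx2 library held 13781541 tags with a length of 136 bp. Intervals of shares are 95% Wilson intervals that cover counting error only, and neighboring peaks are not independent of each other.

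Most runs were short. Exactly 4 peaks were found in 567 of the 642 FLAG-wt-Cdx1 runs (88.3%) and in 439 of the 504 FLAG-wt-Cdx2 runs (87.1%). There were 54 and 49 runs of 5 peaks, 14 and 9 runs of 6 peaks, and 7 runs of 7 or more peaks in each library. The largest run of each library held 15 peaks. Runs thus took up 1.42% of the FLAG-wt-Cdx1 peaks (interval, 1.36 to 1.47) and 0.994% of the FLAG-wt-Cdx2 peaks (0.953 to 1.04), although the FLAG-wt-Cdx2 list was the longer of the lists.

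The span of a run, from its first to its last summit, had a median of 4512.5 bp for FLAG-wt-Cdx1 (quartiles, 3005 and 5675.75) and 4772.5 bp for FLAG-wt-Cdx2 (3222.75 and 6081.75). Spans ranged from 1009 to 16974 bp and from 1086 to 20396 bp, respectively. Gaps between neighboring summits had medians of 1295 and 1409 bp, with smallest values of 186 and 217 bp. Summed over all runs, the span came to 2903.72 kb in the FLAG-wt-Cdx1 library and 2423.28 kb in the other.

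Just outside the definition were 4409 FLAG-wt-Cdx1 and 4316 FLAG-wt-Cdx2 groups of 3 peaks. A gap less than 100 bp under the limit was present in 65 and 64 runs, which a slightly smaller limit would have split or shortened. Gaps of up to 3100 bp gave 59 and 53 further runs. The count of runs was therefore strongly set by the limits chosen. Gaps of at most 2000 bp gave 263 and 195 runs, and gaps of at most 5000 bp gave 2730 and 2642.

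Peaks in runs were somewhat taller than other peaks, but their fold enrichment over the local background was not higher. Height is given by the pileup, the number of fragments covering a summit, which is not scaled to library depth. In the FLAG-wt-Cdx1 library, the median pileup was 11 in runs (quartiles, 9 and 14; range, 5 to 220) and 9 at other peaks (8 and 12). In the FLAG-wt-Cdx2 library, it was 10 in runs (8 and 13; range, 4 to 226) and 8 at other peaks (7 and 10). Quartiles of peaks inside and outside runs overlapped in both libraries. In runs formed without peaks over more than 2 times the genome-wide background, the median pileup was 9 and 8, the same as at other peaks. That background includes the runs' own fragments, so this limit also separates peaks by height. The equal medians therefore cannot show why peaks in runs were taller.

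In the fold enrichment, the pileup is divided by the local background after 1 is added to both. That background also counts fragments of neighboring peaks, so that the choice of runs can lower the fold enrichment of their peaks. Its values therefore do not compare the strength of binding in and outside runs. The median fold enrichment was 4.86 in FLAG-wt-Cdx1 runs and 5.35 at other peaks, and it was 4.72 both in and outside FLAG-wt-Cdx2 runs. Among all FLAG-wt-Cdx1 peaks 9.98% were above the 90th percentile of fold enrichment, against 3.87% of the peaks in runs (interval, 3.20 to 4.66). Among all FLAG-wt-Cdx2 peaks the share was 10%, against 6.41% in runs (5.45 to 7.54). The highest fold enrichment in a run was 19.5 in the FLAG-wt-Cdx1 library, whose list reached 39.0, and 15.9 in the FLAG-wt-Cdx2 library, whose list reached 33.6.

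A peak above that percentile was present in 95 of the 642 FLAG-wt-Cdx1 runs and 116 of the 504 FLAG-wt-Cdx2 runs. Each run has at least 4 peaks, so these counts cannot be set against the shares of single peaks. No matching count was made for groups of peaks outside runs. The peaks of a run were mostly of similar height. The tallest peak exceeded the second tallest by a median factor of 1.17 in both libraries, and by 2 or more in only 4 FLAG-wt-Cdx1 runs and 13 FLAG-wt-Cdx2 runs. Typical runs were thus several low peaks side by side, without a dominant summit. Pileups outside runs were also low, with quartiles of 8 and 12 for FLAG-wt-Cdx1 and 7 and 10 for FLAG-wt-Cdx2. The factor was not computed for groups outside runs, so similar height was not shown to be particular to runs.

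As local background, MACS took the value of the surrounding 10 kb or, if higher, that of the genome, and it is given here in multiples of the genome-wide value (0.798 fragments in the FLAG-wt-Cdx1 library and 0.694 in the other). It had a median of 1.66 in FLAG-wt-Cdx1 runs and 1.17 at other peaks, and of 1.68 in FLAG-wt-Cdx2 runs and 1.08 at other peaks. It was above 2 at 4.02% of all FLAG-wt-Cdx1 peaks and at 28.5% of those in runs (interval, 26.8 to 30.3). The shares for FLAG-wt-Cdx2 were 6.14% of all peaks and 37.9% in runs (35.8 to 39.9). Peaks in runs thus lay over a background above 2 several times as often as the average peak.

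Part of this background was the runs' own fragments, because several peaks fall within the same 10 kb. The pileups of all called peaks within that window summed to a median of 42 fragments for FLAG-wt-Cdx1 peaks in runs and 15 for other peaks, and to 38 and 12 for FLAG-wt-Cdx2. These sums were subtracted from the tags of the window at peaks whose background was above the genome-wide value. The remainder had medians of 0.968 in runs and 0.985 at other FLAG-wt-Cdx1 peaks, and 1.04 both in and outside FLAG-wt-Cdx2 runs, in multiples of the genome-wide value. Upper quartiles were higher in runs, with 1.30 against 1.18 for FLAG-wt-Cdx1 and 1.57 against 1.27 for FLAG-wt-Cdx2. Peaks at the genome-wide value, left out here, were 1.19% of FLAG-wt-Cdx1 peaks in runs and 29.2% of the others. For FLAG-wt-Cdx2 they were 8.82% and 41.6%. The other peaks were thus selected more for a raised background, so that equal medians cannot show equal backgrounds. In the median, the remainder in runs was near the genome-wide value. The subtraction takes only fragments at the summits.

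The largest runs lay over a much higher background than the typical run. With the number of peaks in a group, the median background rose from 1.08 at FLAG-wt-Cdx1 peaks without a neighbor to 1.59 in runs of 4 peaks, 2.10 in runs of 5, 3.03 in runs of 6 and 17.4 in runs of 7 or more. For FLAG-wt-Cdx2 the corresponding medians were 1.02, 1.65, 2.14, 7.97 and 19.4. The median fold enrichment did not rise with them. In runs of 7 or more peaks it was 3.72 (FLAG-wt-Cdx1) and 3.81 (FLAG-wt-Cdx2), at median pileups of 65 and 51 fragments.

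**Figure D1:**
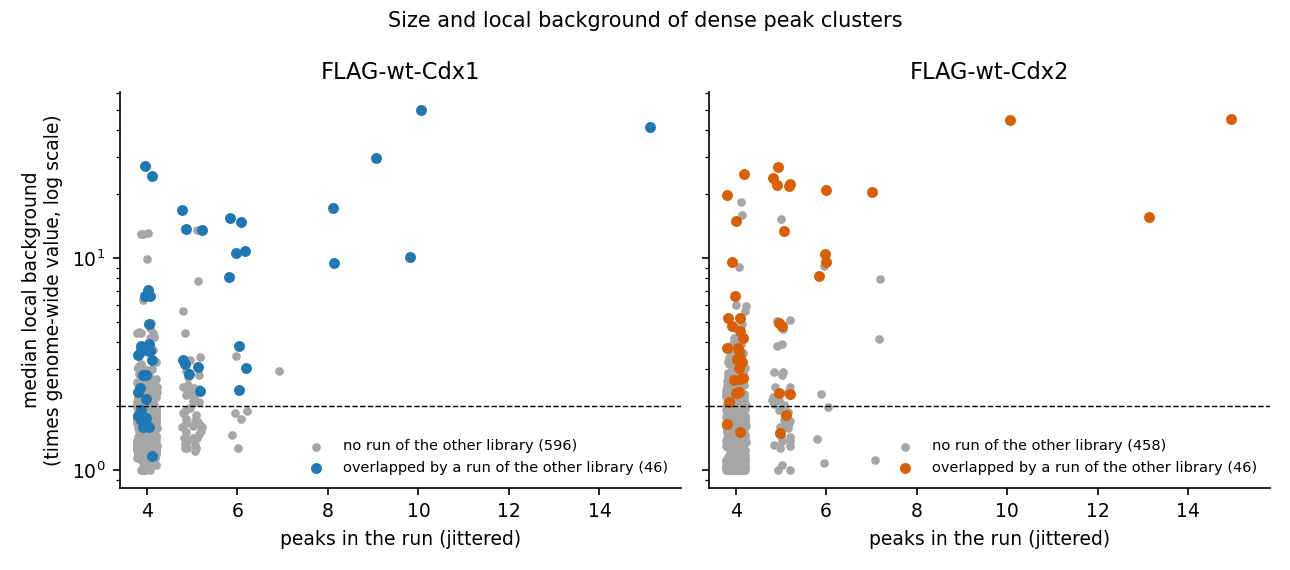
Each point is a run, placed by its number of peaks (horizontal axis, jittered) and by the median local background of its peaks in multiples of the genome-wide value (vertical axis, log scale), with runs overlapped by a run of the other library in color and the dashed line at 2. Runs of 4 peaks spread from 1 to above 20, and the runs of 10, 13 and 15 peaks lie at about 10 or above and are all colored.

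Positions of the largest runs are given on GRCh37 (hg19), without annotation. As a landmark from the lists themselves, the longest stretch of each chromosome without a peak of either library was used. On most chromosomes of this build, such a stretch lies at the centromere, and satellite repeats flank it. Within 1 Mb of it lay 29 FLAG-wt-Cdx1 runs (4.52%) and 26 FLAG-wt-Cdx2 runs (5.16%), against 0.913% and 0.905% of all peaks. Of the 7 runs with 7 or more peaks, 6 FLAG-wt-Cdx1 and 5 FLAG-wt-Cdx2 runs were that close.

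The run with the most peaks was the same place in both libraries. At chr10:42383538-42400711, 28.362 kb from the stretch, 15 FLAG-wt-Cdx1 peaks had pileups of 64 to 196 fragments (median, 115) over a background of 41.6 times the genome-wide value. At chr10:42383613-42400718, 15 FLAG-wt-Cdx2 peaks had pileups of 61 to 196 (median, 102) over a background of 45.3 times. The peak of highest fold enrichment was the third of the FLAG-wt-Cdx1 run, with 196 fragments and a ratio of 5.79, and the twelfth of the FLAG-wt-Cdx2 run, with 172 fragments and a ratio of 6.42.

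On chromosome 4, 10 FLAG-wt-Cdx1 peaks at chr4:49137991-49152614 (pileups, 26 to 79) lay within 13 FLAG-wt-Cdx2 peaks at chr4:49138047-49158597 (29 to 97), except for the start of the first peak. With 20396 bp the latter was the longest FLAG-wt-Cdx2 run, and the backgrounds were 10.1 and 15.7 times the genome-wide value. That FLAG-wt-Cdx2 run held 13 FLAG-wt-Cdx1 peaks in all. Those at 17.51, 18.419 and 20.4 kb from its first summit, with 28, 59 and 43 fragments, were outside the FLAG-wt-Cdx1 run. The gap before them, from a summit at 14.447 kb, was above the limit that defines a run. The 10 against 13 peaks therefore reflect this limit, not fewer FLAG-wt-Cdx1 peaks called at this place. On chromosome 16, 10 peaks of each library formed runs at chr16:46385848-46396819 and chr16:46385900-46396817, with median pileups of 115 and 97 and backgrounds of 49.9 and 44.8 times. The first of these starts at the first base after the stretch. A second FLAG-wt-Cdx1 run of 9 peaks, at chr16:46400003-46412154, held the tallest summit of any FLAG-wt-Cdx1 run, with 220 fragments and a fold enrichment of 8.09.

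Smaller runs of the same kind were found at chr2:92312899-92321939, with 8 FLAG-wt-Cdx1 peaks (pileups, 25 to 53) against 6 FLAG-wt-Cdx2 peaks, and at chr4:49104524-49112753, with 6 against 7 peaks. Their backgrounds were 9.44 and 10.4 times the genome-wide value on chromosome 2, and 14.8 and 20.4 times on chromosome 4. The median pileup was higher for FLAG-wt-Cdx1 in the largest pair on chromosome 10 (115 against 102) and at chr16:46385848-46396819 (115 against 97). It was higher for FLAG-wt-Cdx2 in both pairs on chromosome 4 (43 against 36 and 53 against 45.5) and in that on chromosome 2 (44 against 39.5). These pileups are not scaled to depth, and the FLAG-wt-Cdx1 library held more tags. In all these places, the pileups of both libraries reached several times the median of their lists.

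Of the other long runs, 3 lay far from the stretch and were low. The FLAG-wt-Cdx1 run at chr20:11303476-11314102 spanned 10528 bp with 5 peaks of 9, 9, 13, 12 and 8 fragments over a background of 1.31 times the genome-wide value, and 2 FLAG-wt-Cdx2 peaks fell in it. The FLAG-wt-Cdx2 run at chr3:190902590-190916984 spanned 14230 bp with 7 peaks of 5, 7, 7, 10, 9, 7 and 8 fragments over a background of 1.12 times, and 1 FLAG-wt-Cdx1 peak fell in it. Further along the same chromosome, 6 FLAG-wt-Cdx2 peaks of 6 to 11 fragments formed a run of 10512 bp at chr3:191326757-191337691, with 2 FLAG-wt-Cdx1 peaks. None of these 3 runs held a peak above 13 fragments. A further FLAG-wt-Cdx2 run of 7 peaks at chr1:145106192-145118230 was nearer, 2.57 Mb from the stretch of its chromosome. It was taller, with pileups of 8 to 20 over a background of 4.15 times, and held 4 FLAG-wt-Cdx1 peaks.

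Runs of the libraries were paired by position. A pair needs at least 4 called peaks in each list, so an unpaired run can still hold peaks of the other library. No matching share was worked out for other groups of peaks, so the shares are not called low or high. By an overlap of at least 1 bp, 46 FLAG-wt-Cdx1 runs met 46 FLAG-wt-Cdx2 runs, 1 to 1, which was 7.17% of the 642 FLAG-wt-Cdx1 runs (interval, 5.41 to 9.43) and 9.13% of the 504 FLAG-wt-Cdx2 runs (6.91 to 12.0). In 43 of the 46 pairs, the overlap covered at least 50% of both runs, and 24 pairs had the same number of peaks. Pairs were found on 20 of the 22 autosomes, with 8 on chromosome 16 and 4 on chromosome 10. Where peaks of the libraries overlapped, their summits lay within 50 bp of each other in 70.3% of 212 overlaps within runs of both libraries and in 66.1% of 64414 overlaps in no run.

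The paired runs were mainly those with a high background. When the median background of a run exceeded 2 times the genome-wide value, 39 of 162 FLAG-wt-Cdx1 runs (24.1%; interval, 18.1 to 31.2) and 42 of 186 FLAG-wt-Cdx2 runs (22.6%) were paired. Below that limit, 7 of 480 FLAG-wt-Cdx1 runs (1.46%; 0.708 to 2.98) and 4 of 318 FLAG-wt-Cdx2 runs (1.26%) were paired. Paired FLAG-wt-Cdx1 runs had a median background of 3.73 times and a median pileup of 19, against 1.58 times and 10 for the others. After subtraction of the called peaks' fragments, 2.37 times the genome-wide value was left in paired FLAG-wt-Cdx1 runs and 0.911 times in the others. When peaks above that limit were removed before runs were formed, 4 pairs were left, 0.917% of FLAG-wt-Cdx1 and 1.38% of FLAG-wt-Cdx2 runs. With only peaks whose −log10 q reached 5, there were 56 and 31 runs and 16 pairs, or 28.6% and 51.6% of them.

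Pairing also went with size. Of runs of 4 peaks, 24 FLAG-wt-Cdx1 (4.23%) and 26 FLAG-wt-Cdx2 runs (5.92%) were paired, whereas 14 of 21 FLAG-wt-Cdx1 and 8 of 16 FLAG-wt-Cdx2 runs of 6 or more peaks were. Within 1 Mb of the peak-free stretch were 17 of the 46 pairs, and 14 pairs exceeded 10 times the genome-wide background in both libraries.

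Only 4 pairs had a background of at most 2 times the genome-wide value in both libraries, and these were named after their values were seen. At chr5:105532094-105537713, the FLAG-wt-Cdx1 peaks had 7, 14, 10 and 9 fragments and the FLAG-wt-Cdx2 peaks 7, 11, 9 and 14, over median backgrounds of 1.17 and 1.51 times. At chr6:116382506-116388378, the FLAG-wt-Cdx1 peaks had 11, 14, 11 and 10 fragments and the FLAG-wt-Cdx2 peaks 8, 9, 11 and 10, over 1.75 and 1.65 times. All 4 peaks of each run overlapped a peak of the other library in these 2 places. The other pairs, both on chromosome 12, were at chr12:71430779-71435183 and chr12:78548922-78554795, each with 4 peaks of FLAG-wt-Cdx1 and 5 of FLAG-wt-Cdx2.

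**Figure D2:**
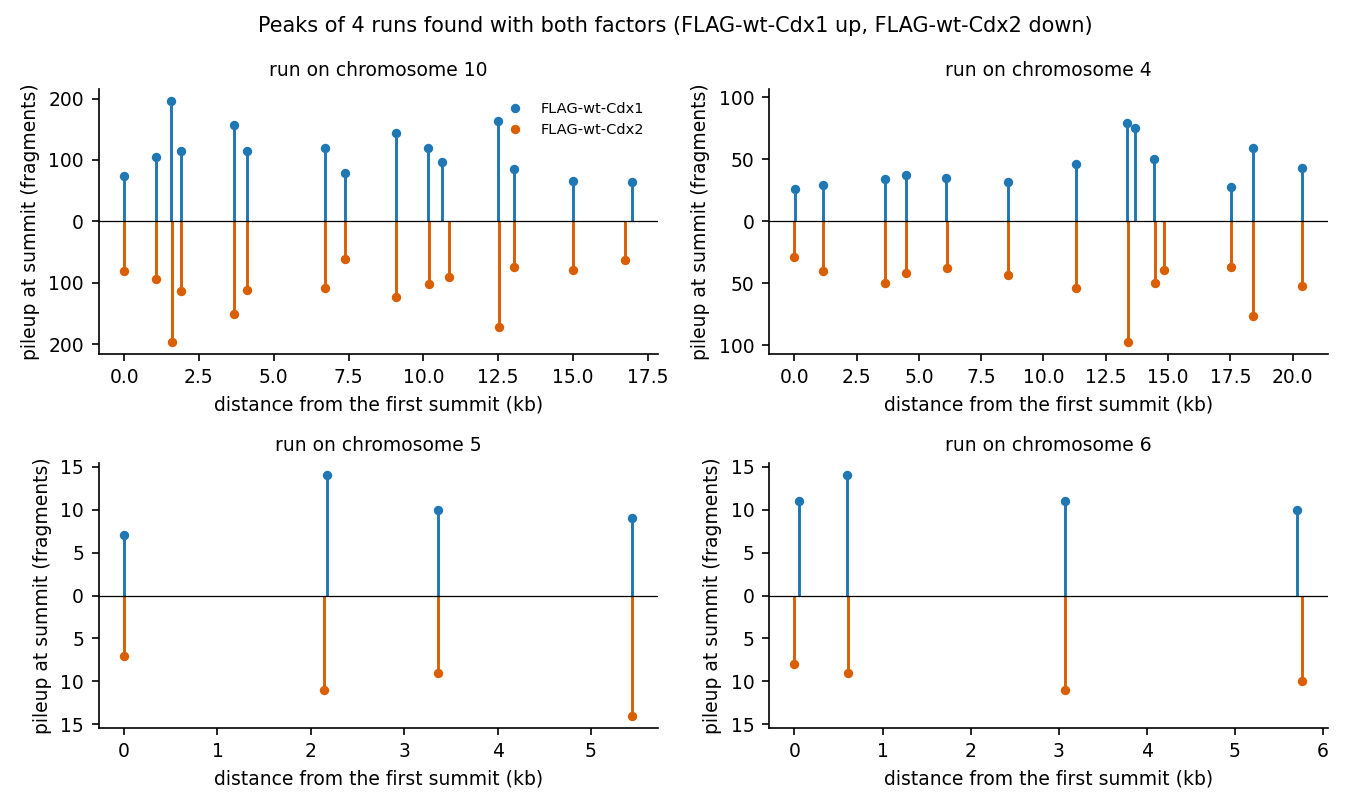
Pileup in fragments at every called summit (vertical axis) against the distance from the first summit in kb (horizontal axis) over 4 paired runs, with FLAG-wt-Cdx1 upward and FLAG-wt-Cdx2 downward and all peaks of both libraries in the window drawn. The runs on chromosomes 10 and 4 reach 196 and 97 fragments, those on chromosomes 5 and 6 at most 14, and most summits of the libraries face each other.

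Runs of 1 library were also compared with all single peaks of the other. No FLAG-wt-Cdx2 peak fell in 82 FLAG-wt-Cdx1 runs (12.8%), 1 peak in 210, 2 in 214, 3 in 90 and 4 or more in 46. For FLAG-wt-Cdx2 runs, 91 held no FLAG-wt-Cdx1 peak, 164 held 1, 135 held 2, 73 held 3 and 41 held 4 or more. These counts have no matching count for groups outside runs beside them. Among all single peaks, 34.6% of FLAG-wt-Cdx1 and 30.8% of FLAG-wt-Cdx2 peaks overlapped a peak of the other library.

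Among runs without a peak of the other library, those with the most peaks held 5. They were at chr2:36427307-36436701 (pileups, 7 to 10), chr7:114447909-114454905 (8 to 13) and chr22:48249253-48253141 (7 to 17) for FLAG-wt-Cdx1. For FLAG-wt-Cdx2 they were at chr4:99675035-99683852 (5 to 11), chr10:91252977-91260896 (6 to 10) and chr18:20394630-20402477 (7 to 19). Median backgrounds were at most 1.41 times the genome-wide value in 5 of these 6 runs and 2.14 times in the run on chromosome 18. Peaks below the cutoff are not in the lists, so that an absence of binding was not shown.

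Peak by peak, the overlap between libraries was higher in runs than outside them. A FLAG-wt-Cdx2 peak overlapped 34.6% of all FLAG-wt-Cdx1 peaks, 40.1% of those in runs (interval, 38.3 to 42.0) and 34.5% of the others. A FLAG-wt-Cdx1 peak overlapped 30.8% of all FLAG-wt-Cdx2 peaks, 38.5% of those in runs (36.5 to 40.6) and 30.7% of the others. Peaks were also divided into 10 classes of about equal size by their −log10 q. Peaks of equal value at a class limit were divided by their order along the genome, so neighboring classes can share a value. The share was higher in runs in 10 of 10 classes in both libraries. Differences were 1.76 to 11.3 percentage points for FLAG-wt-Cdx1 and 0.464 to 14.1 for FLAG-wt-Cdx2. In most FLAG-wt-Cdx2 and some FLAG-wt-Cdx1 classes, the interval in runs included the share of the others. In class 5 of FLAG-wt-Cdx2, for example, it was 22.2% (14.5 to 32.4) against 21.8%.

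This order was turned among peaks with a background of at most 2 times the genome-wide value. There the share was 32.6% in runs (interval, 30.5 to 34.7) and 33.8% at other FLAG-wt-Cdx1 peaks, and 28.6% in runs (26.2 to 31.1) and 29.4% at other FLAG-wt-Cdx2 peaks, with differences smaller than the intervals. Above that background, it was 58.9% in runs (interval, 55.4 to 62.4) and 51.7% outside them for FLAG-wt-Cdx1. For FLAG-wt-Cdx2 it was 54.8% (51.3 to 58.2) and 50.5%. Over a high background, the share was thus higher both in and outside runs, and peaks in runs more often lay there. Because that background includes the runs' own fragments, the split also separates peaks by height. What made the overall share higher in runs was not tested.

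By group size, the share for FLAG-wt-Cdx1 was 34.5% for single peaks, 34.4% in groups of 2 and 34.5% in groups of 3 peaks. It was 37.7% in FLAG-wt-Cdx1 runs of 4 peaks, 43.7% in runs of 5, 57.1% in runs of 6 and 83.6% in runs of 7 or more (interval, 72.9 to 90.6). For FLAG-wt-Cdx2, the share was higher at each step already below 4 peaks, with 30.1% (29.9 to 30.4), 31.4% (31.1 to 31.8) and 33.0% (32.2 to 33.8), and it was 35.6%, 43.7%, 61.1% and 77.3% (65.8 to 85.7) in runs.

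**Figure D3:**
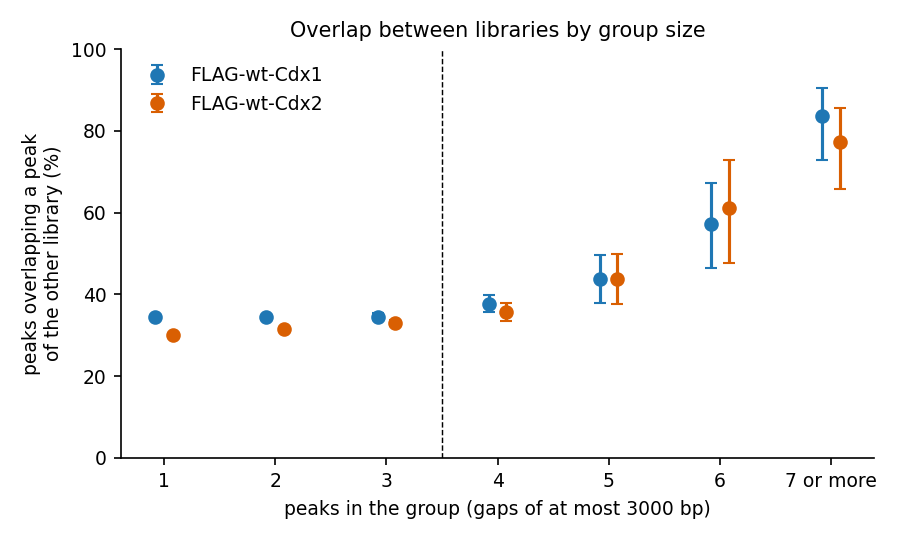
Share of peaks that overlapped a peak of the other library in percent (vertical axis) by the number of peaks in the group (horizontal axis), with 95% Wilson intervals as bars and runs to the right of the dashed line. Points stay between 30.1 and 34.5% for groups of 1 to 3 peaks and reach 83.6% and 77.3% for 7 or more. These last points rest on 7 runs in each library.

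Where peaks of the libraries overlapped, pileups were compared after division by the kept tags of each library. The median ratio of FLAG-wt-Cdx1 to FLAG-wt-Cdx2 was 0.827 for 212 overlaps within runs of both libraries (quartiles, 0.670 and 0.964), 0.838 for 878 in FLAG-wt-Cdx1 runs alone, 0.854 for 616 in FLAG-wt-Cdx2 runs alone and 0.942 for 64414 in no run (0.745 and 1.21). This ratio was therefore not higher in FLAG-wt-Cdx1 runs alone than in FLAG-wt-Cdx2 runs alone, and the quartiles of all 4 groups overlapped. Peaks called in only 1 library have no such ratio.

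The libraries differed in how their runs were spread over the chromosomes. Per 1000 peaks of a chromosome, the median was 13.1 peaks in runs for FLAG-wt-Cdx1, from 9.85 on chromosome 13 to 31.7 on chromosome 19. For FLAG-wt-Cdx2 it was 8.56, from 5.84 on chromosome 21 to 15.5 on chromosome 4. Chromosome 19 had 34 FLAG-wt-Cdx1 runs and 10 FLAG-wt-Cdx2 runs, whereas chromosome 4 had 34 and 55.

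The ratio of the FLAG-wt-Cdx1 to the FLAG-wt-Cdx2 value was highest on chromosomes 21 (4.51), 19 (3.25) and 22 (2.69), and it was below 1 only on chromosomes 13 (0.810) and 4 (0.688). On chromosome 21 this rested on 12 runs against 3, of which 9 and 2 had a high background (above 2 times), as had 7 of 11 and 4 of 5 runs on chromosome 22. With peaks of the other runs alone, chromosome 19 had 17.4 and 3.91 per 1000 peaks, chromosome 22 had 8.67 and 1.98, and chromosome 21 had 6.322 and 1.796. By this count FLAG-wt-Cdx1 was the lower on chromosomes 4 (7.68 and 9.06), 8 (7.62 and 8.01) and 13 (8.40 and 8.74). The median local background of all peaks differed little between the libraries on chromosome 19 (1.39 and 1.37 times the genome-wide value) and on chromosome 4 (1.13 and 1.02). On chromosome 19, 15 of 34 FLAG-wt-Cdx1 runs and 6 of 10 FLAG-wt-Cdx2 runs exceeded 2 times in background, and on chromosome 4, 8 of 34 and 21 of 55. With 1 library per factor, such a difference between the factors cannot be told apart from one between the transfected cells or between the libraries.

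**Figure D4:**
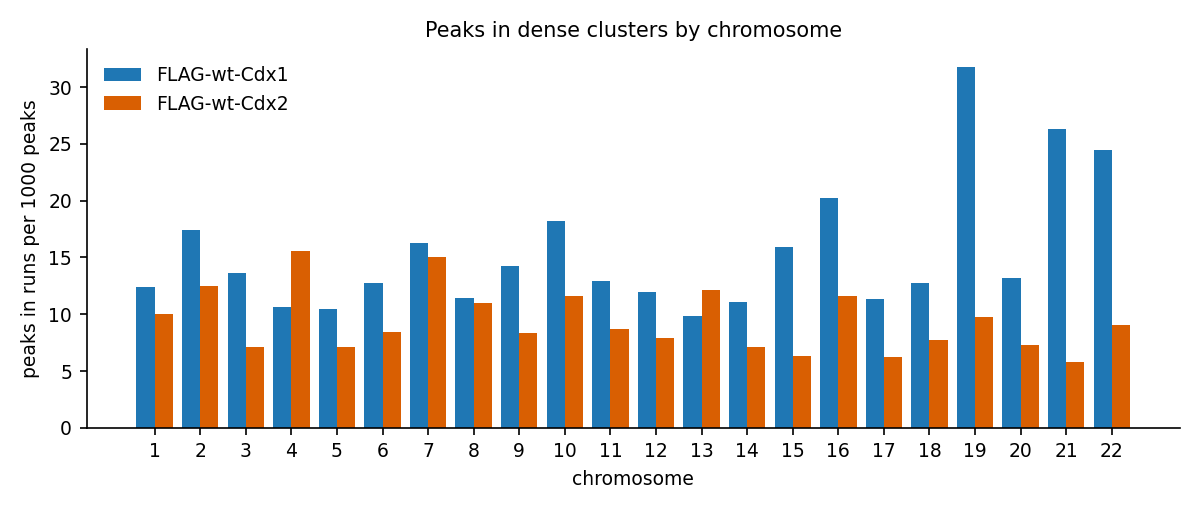
Peaks in runs per 1000 peaks (vertical axis, from 0) on each autosome (horizontal axis), 1 bar per library, without an error since there was 1 library per factor. FLAG-wt-Cdx1 is highest on chromosome 19 (31.7), and FLAG-wt-Cdx2 exceeds it on chromosomes 4 and 13.

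Within chromosomes, runs fell in 541 bins of 1 Mb for FLAG-wt-Cdx1 and in 436 bins for FLAG-wt-Cdx2, of which 80 and 55 held more than 1 run. These bins held 181 of the FLAG-wt-Cdx1 and 123 of the FLAG-wt-Cdx2 runs. A single bin of chromosome 10 held 4 FLAG-wt-Cdx1 runs with 28 peaks, and a single bin of chromosome 4 held 5 FLAG-wt-Cdx2 runs with 33 peaks, both among the places with high background described above.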

How the data were processed

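Peaks were called per library by the authors using MACS 2.0.10.20131216, without a control, at a q-value cutoff of 0.05, with at most 1 tag per position, a 10 kb background window and an effective genome size of 2700000000 bp. Per the submitters' processing notes, reads were prepared with bcl2fastq 1.8.3, cutadapt 1.1 and Trimmomatic 0.32 and placed on GRCh37, and the aligner is not given in the sources used here. The deposited lists give the pileup signal, the fold enrichment (a ratio), a score, and p-values and q-values on a −log10 scale. From pileup and fold enrichment, the local background was worked back. It was a whole number of tags per 10 kb, within 0.05, at 100% of peaks above the genome-wide value.

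Runs and overlaps (at least 1 bp) were computed with Python 3.11.15, numpy 2.4.6, pandas 2.3.3 and scipy 1.17.1, drawn with matplotlib 3.10.9 and tested on simulated data. Samples were grouped by title. The clusters, the limits and the lists were chosen with earlier results of these data known. Runs named were the 5 with the most peaks and the 5 longest of each list, the 5 pairs with the most peaks in the list with fewer, and the 3 largest without a peak of the other list, and ties were broken by span. The peak named in a run is that of highest fold enrichment. Gene lists were not applied, as no annotation of this build was used here. With 1 library per factor, no test was made. Shallow libraries limit the precision of low pileups. Alternatives covered gaps, run sizes, q-values, list lengths, background and overlap.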

Additional observations from a re-analysis of the deposited data

Results flagged for a closer look

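Chromosome X was left out of the definition, and its runs are given because they lie outside the comparisons made. By the same limits it held 5 FLAG-wt-Cdx1 runs among 2428 peaks, all of 4 peaks, and 3 FLAG-wt-Cdx2 runs among 3468 peaks. Per 1000 peaks these were 8.24 and 3.46 peaks in runs, below the medians of the autosomes (13.1 and 8.56). In 2 runs of each library the background exceeded 2 times the genome-wide value.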

How the results depend on the processing

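Values are given for FLAG-wt-Cdx1 and then FLAG-wt-Cdx2. No paired analysis was possible because each factor had a single library, and leaving out a replicate was not possible either. The number of runs was 263 and 195 with gaps of at most 2000 bp, 2730 and 2642 with 5000 bp, 75 and 65 with at least 5 peaks, 5051 and 4820 with at least 3 peaks, and 56 and 31 when −log10 q had to reach 5. It was 642 and 365 in lists of equal length (189894 peaks), 436 and 290 without peaks of a background above 2 times, and 579 and 448 without 5 Mb beside the peak-free stretch. FLAG-wt-Cdx1 had more runs under each of these settings. The share of peaks in runs was 0.584% and 0.381% with 2000 bp, 6.32% and 5.45% with 5000 bp, 0.272% and 0.251% with the stricter q, 1.42% and 0.813% in lists of equal length, and 0.973% and 0.593% without high background.

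The share of paired runs was 6.70% and 8.53% when 50% of both runs had to overlap, 11.0% and 14.9% with 2000 bp, 10.3% and 10.6% with 5000 bp, 28.6% and 51.6% with the stricter q (16 pairs), and 6.85% and 12.1% in lists of equal length. Without peaks of high background it was 0.917% and 1.38% (4 pairs), and without 5 Mb beside the stretch 3.97% and 5.13% (23 pairs), both added after seeing the data. The share of peaks in runs that were overlapped was 32.5% and 32.2% with summits within 100 bp (others, 29.5% and 26.2%) and 61.0% and 78.2% with the stricter q (others, 24.9% and 39.4%). It turned to 32.6% and 28.6%, below other peaks (33.8% and 29.4%), when peaks of high background were left out, also added after seeing the data.

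The median pileup in runs was 9 and 8 without peaks of high background, as at other peaks, and 14 and 13 with at least 5 peaks. The limit on background also separates peaks by height, because the background includes the runs' own fragments. The median fold enrichment was 4.70 and 4.43 with at least 5 peaks, and it was 4.91 and 4.72 without high background. The median span was 2713 and 2765 bp with 2000 bp and 8080.5 and 8540 bp with 5000 bp. Of 58 alternative values, 12 stayed within 1.5 times the reported count or within the interval of the reported value. The cause of the other changes was not tested, beyond fewer or more peaks entering a run. The planned windows around genes were not run, since no annotation of the build was used here. Low pileups limit which peaks were called at this depth.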
